A study of Mus musculus with 32 samples.

Results

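The spinal cord transcriptome of 4 wild-type (WT) mice given OKN-007 was compared with that of 4 untreated WT mice, all 8 labelled 155 days, out of 32 mice in 8 groups of 4. The comparison asked what the drug does to gene expression in a spinal cord without the disease for which it was tested. The 8 mice were chosen by their labels alone. Each received its group from the labels wildtype and either untreated or OKN-007. The untreated mice carry the numbers 1 to 4 and the OKN-007 mice the numbers 5 to 8, and they are named by these numbers below. The WT mice were littermates without the transgene from a C57BL/6J colony that carried the human SOD1 G93A transgene in the other genotype, and the drug was given in the drinking water. The labels do not say at which dose or age treatment of the sequenced mice began, and they name neither litter nor cage. The time label was read as age, as in the study's methods, although the series' design text can also be read as the length of treatment. The other 24 mice, of the G93A genotype or labelled 90 days, are used only for contrast. RNA came from pieces of spinal cord of 25 mg, and polyadenylated RNA was sequenced.

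OKN-007 is a nitrone, a disulfonyl derivative of phenyl-tert-butylnitrone. Nitrones were developed as spin traps, which react with short-lived free radicals and turn them into more stable adducts, and OKN-007 is known for antioxidant and anti-inflammatory actions in models of glioma and hearing loss. In the spinal cord, superoxide dismutases, peroxidases and the genes driven by the transcription factor Nrf2 remove oxidants, while microglia and astrocytes release complement proteins and cytokines. These groups of genes were therefore examined beside markers of each cell type of the cord.

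No gene separated the 2 groups of WT mice beyond the spread between mice after correction for the number of genes tested. The gene with the smallest p, Ide, which encodes the insulin-degrading protease, was 1.91 times higher in untreated mice, and Fgfbp3 and Btaf1, which lie close to it on chromosome 19, followed it. Antioxidant enzymes, astrocyte markers and neuronal markers lay near equal levels in both groups. All 13 markers of homeostatic microglia and 8 of 11 complement genes had lower values in OKN-007 mice, beside 57.7% of all genes, and none passed the test. The median log2 fold changes were -0.20 over the microglial and -0.25 over the complement genes. Without untreated mouse 2 these medians were -0.13 and -0.15. Of the 11934 genes with a mean of at least 5 CPM (counts per 1000000 counted reads, scaled by TMM factors), 99.7% had a 95% interval inside a 2-fold change.

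Several libraries stood apart from the others, within groups as well as between them. Total counts ran from 23259870 to 30138257 per mouse, so that 3 counts in the smallest library corresponded to 0.129 CPM. Untreated mouse 2 stood alone on the first principal component (27.5% of the variance) and held the most reads of Lars2, with 396 CPM against 41.4 to 80.6 CPM in the other 7. Untreated mice 1 and 3 lay on one side of the second component (25.4%) and untreated mouse 4 on the other. Untreated mouse 4 had a high level of genes that respond to glucocorticoids, such as Sgk1 at 232 CPM, shared by OKN-007 mice 5, 7 and 8 (117 to 219 CPM) but not by OKN-007 mouse 6 (23.6 CPM). OKN-007 mouse 8 held reads of cerebellar granule cell genes, with Gabra6 at 5.65 CPM and at 0 in the other 7 mice, and OKN-007 mouse 6 had the highest mean log2(CPM + 1) of Schwann cell genes (2.90, against 2.01 to 2.22 in the other 7). The mean log2(CPM + 1) of 9 caudal Hox genes was 2.0, 2.79, 2.32 and 3.2 in untreated mice 1 to 4 and between 2.81 and 3.12 in OKN-007 mice, so untreated mice 1, 2 and 3 lay below all OKN-007 mice, mouse 2 by little. The group means of 2.58 and 3.03 differed by 0.46, beside an SD between mice of 0.39, so the level of these genes, which mark position along the cord, went in part with the groups, and its part in the results was not tested beyond the fits that include this score. Hoxd10 ran the same way, at 12.9, 12.1, 8.62 and 34.4 CPM in untreated mice and at 34.9, 31.3, 25.9 and 31.5 CPM in OKN-007 mice. The biological coefficient of variation was 0.138 in the untreated and 0.0914 in the OKN-007 group. Xist lay between 252 and 375 CPM in all 8 mice and the Y-linked Kdm5d had 0 counts in each. Untreated mice 1 and 3 were the closest pair, at a chi-square of 3.6 per gene, still above what sampling of reads gives, and were counted as separate mice.

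Of 18675 genes tested with edgeR's quasi-likelihood test, 0 (0.0%) had a Benjamini-Hochberg adjusted p under 0.05, and the smallest adjusted p was 0.1002. At an unadjusted p under 0.05 there were 549 genes (2.94%), 240 higher (1.29%) and 309 lower (1.65%) in OKN-007 mice. If no gene differed, 934 would be expected on average. DESeq2 called 2 genes, Ide and Fgfbp3, and edgeR's likelihood ratio test called 4, Ide, Fgfbp3, Btaf1 and Sult5a1. The values of the 2 groups did not overlap for 357 genes (1.91%), 155 (0.83%) with all OKN-007 mice above and 202 (1.08%) with all below. Leaving out untreated mouse 4 raised the number at an unadjusted p under 0.05 to 1289, with Ide, Btaf1 and Slc9a7 past the adjusted threshold, and leaving out untreated mouse 2 lowered it to 351.

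**Figure D1:**
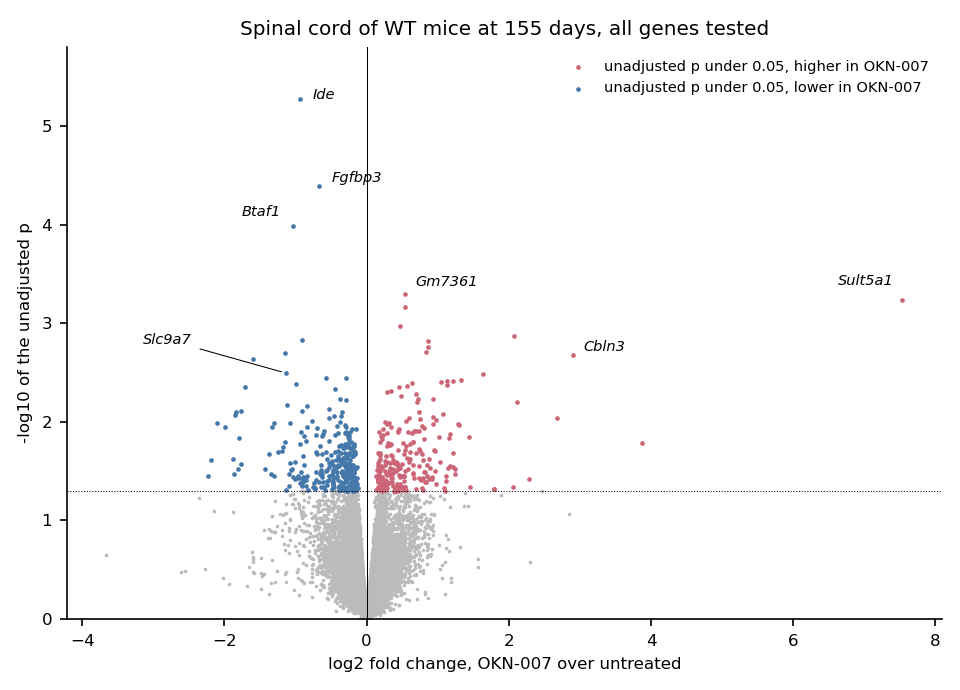
Each point is 1 of the 18675 genes tested: the horizontal axis gives the log2 fold change, OKN-007 minus untreated, in the 8 WT mice at 155 days, and the vertical axis the negative log10 of the unadjusted p of edgeR's quasi-likelihood test, with a dotted line at an unadjusted p of 0.05. Ide, Fgfbp3 and Btaf1 lie highest, on the side of lower counts in OKN-007 mice, and no gene passed the adjusted threshold.

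The differences were small as well as few. The median absolute log2 fold change was 0.0856, and 165 genes differed by at least 1 on the log2 scale, of which 17 had a mean of 1 CPM or more. For 16140 genes (86.4%) the 95% interval of the log2 fold change lay inside -1 and 1, and for 12032 (64.4%) inside -0.5 and 0.5. The interval reached a median of 0.18 to either side for the 2189 genes at 100 CPM or more and 0.97 for the 1884 genes under 0.5 CPM, of which 15.9% had an interval inside -1 and 1. For most genes under 0.5 CPM a 2-fold change was therefore not excluded. Differences near 2-fold also missed the adjusted threshold in better covered genes, such as Ide and Btaf1. More genes had a lower than a higher value in OKN-007 mice (57.7%, with a median log2 fold change of -0.02 over all genes), and without untreated mouse 2 this share was 48.9%.

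The gene with the smallest p encodes insulin-degrading enzyme, a zinc metalloprotease that cleaves insulin, amylin and amyloid beta. Ide (ENSMUSG00000056999) was measured at 81.2, 68.5, 78.9 and 46.0 CPM in untreated mice 1 to 4 and at 34.0, 38.0, 31.9 and 39.9 CPM in OKN-007 mice 5 to 8. All OKN-007 mice lay below all untreated mice, and untreated mouse 4 lay closest to them. The means were 68.6 ± 16.1 and 35.9 ± 3.65 CPM (SD, n = 4 each). The log2 fold change was -0.93 (SE 0.15, 95% interval -1.24 to -0.62) with an adjusted p of 0.1002 in edgeR's quasi-likelihood test. Over 19 alternative settings the log2 fold change ran from -1.13 to -0.80 and the adjusted p from 6.329e-08 to 0.7231, under 0.05 in 6 of them. When the caudal Hox score entered the fit, it was -0.80 (adjusted p 0.1849).

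Fgfbp3, a secreted protein that binds fibroblast growth factors and releases them from the matrix, and Btaf1, an ATPase that removes the TATA-binding protein from DNA, had the next smallest p among all genes. Fgfbp3 (ENSMUSG00000047632) was measured at 15.6, 18, 16.1 and 14.7 CPM in untreated mice and at 11.2, 9.93, 11.5 and 7.99 CPM in OKN-007 mice. Btaf1 (ENSMUSG00000040565) was measured at 52.7, 38.9, 47.6 and 23.9 CPM in untreated mice and at 22.4, 15.7, 23.4 and 18.2 CPM in OKN-007 mice. Neither gene's groups overlapped, although for Btaf1 the lowest untreated mouse, again mouse 4, lay just above the highest OKN-007 mouse. The log2 fold change was -0.66 for Fgfbp3 (SE 0.12, 95% interval -0.92 to -0.40, adjusted p 0.38) and -1.03 for Btaf1 (SE 0.21, 95% interval -1.48 to -0.59, adjusted p 0.6458). Under the alternative settings the adjusted p fell under 0.05 in 4 of 19 for each gene.

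The 3 genes belong to one stretch of chromosome 19. A copy number variant near Ide and Fgfbp3 is known to segregate among mice of C57BL/6J, the strain of this colony. The copy number and the litters of these mice were not measured here, so a drug difference at this stretch and a difference in inherited copies cannot be told apart. In WT mice at 155 days the genes around them had log2 fold changes closer to 0. In the order of the chromosome, Ppp1r3c (log2 fold change 0.00) and Tnks2 (-0.02) precede Fgfbp3 and Btaf1, Cpeb3 (-0.10) and Marchf5 (-0.04) separate these from Ide, and Kif11 (0.10), Hhex (-0.34) and Exoc6 (-0.06) follow it. Each of these 7 neighbours had an adjusted p of 1.0 in the same test. Fgfbp3 and Btaf1 are transcribed away from each other from neighbouring starts, and their promoters are shown because both carried the lower counts. The sequences are those of RefSeq for GRCm38.p6, from 250 bases before to 50 bases after the annotated start, written 5′ to 3′ on the strand of the gene, with CpG dinucleotides in capitals. The Fgfbp3 window is chr19:36919550-36919849 on the minus strand and the Btaf1 window is chr19:36925829-36926128 on the plus strand.
Fgfbp3 promoter: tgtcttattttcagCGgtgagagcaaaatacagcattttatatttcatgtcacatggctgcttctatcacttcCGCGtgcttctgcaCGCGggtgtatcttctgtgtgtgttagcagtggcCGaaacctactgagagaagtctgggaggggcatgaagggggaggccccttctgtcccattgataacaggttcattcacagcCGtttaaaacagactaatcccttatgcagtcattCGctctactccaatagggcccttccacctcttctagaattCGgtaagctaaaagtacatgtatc
Btaf1 promoter: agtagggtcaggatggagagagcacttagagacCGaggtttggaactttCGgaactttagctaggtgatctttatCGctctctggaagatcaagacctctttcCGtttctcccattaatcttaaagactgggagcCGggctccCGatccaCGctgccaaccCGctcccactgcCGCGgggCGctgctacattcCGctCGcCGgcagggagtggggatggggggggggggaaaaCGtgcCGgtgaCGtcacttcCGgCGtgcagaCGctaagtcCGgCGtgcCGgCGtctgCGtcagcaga

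The Fgfbp3 window held 9 CpG dinucleotides and the Btaf1 window 25, where 56.5% and 83.1% of 32851 promoters of the same length held no more and the median was 7. On either strand, CCAAT and TATAAA occurred in the Fgfbp3 window, and neither these nor GGGCGG occurred in the Btaf1 window. These letters occurred in 37.4% (CCAAT), 13.6% (TATAAA) and 35.7% (GGGCGG) of all promoters. The window of Ide is not shown, because its RefSeq start lies 3932 bases upstream of the coding transcript in another annotation.

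**Figure D2:**
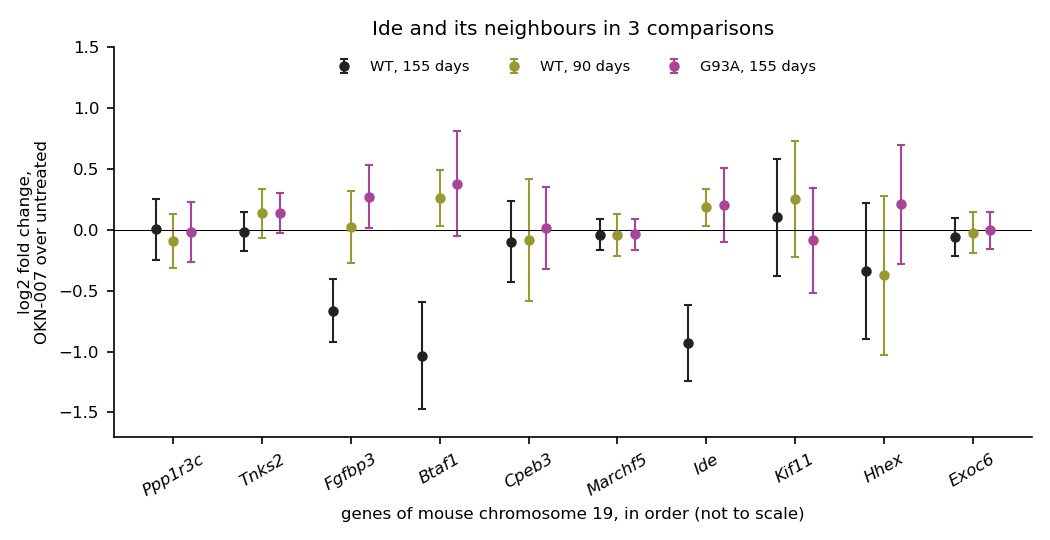
The log2 fold change of OKN-007 minus untreated (vertical axis) with its 95% interval is drawn for 10 neighbouring genes in their order on chromosome 19 (horizontal axis), in WT mice at 155 days, WT mice labelled 90 days and G93A mice at 155 days. Only Fgfbp3, Btaf1 and Ide in WT mice at 155 days have intervals that lie wholly below 0.

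The WT OKN-007 mice at 155 days had the lowest levels of Ide in the whole series. TMM factors were computed separately for each age, so small gaps between mice of different ages carry no weight. Ide lay between 46.0 and 87.3 CPM in the other 28 mice of the series, above all 4 WT OKN-007 mice at 155 days. Group means of Ide were 58.3 ± 3.85 CPM in untreated and 66.2 ± 2.91 CPM in OKN-007 WT mice labelled 90 days, and 72.4 ± 13.7 and 83.5 ± 4.05 CPM in untreated and OKN-007 G93A mice at 155 days (SD, n = 4 each). Fgfbp3 lay between 11.4 and 23.6 CPM and Btaf1 between 23.3 and 52.7 CPM in the other 28 mice, and both ranges begin just under the highest of the WT OKN-007 mice at 155 days.

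**Figure D3:**
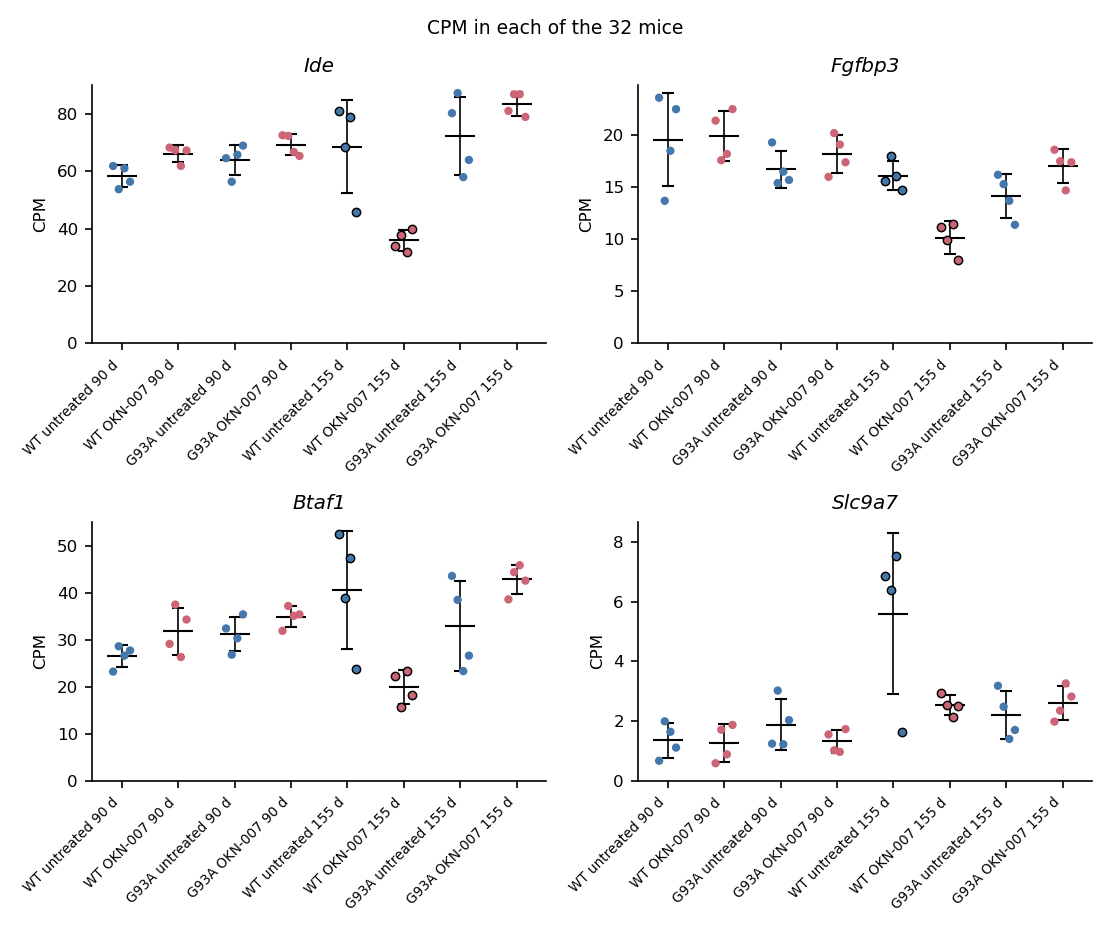
CPM (vertical axis) of Ide, Fgfbp3, Btaf1 and Slc9a7 in each of the 32 mice, grouped by genotype, treatment and age (horizontal axis), with bars at the mean ± SD of the 4 mice, untreated in blue, OKN-007 in red and the WT groups at 155 days outlined in black. The WT OKN-007 mice at 155 days lie between 31.9 and 39.9 CPM for Ide, below the other 28 mice, while for Slc9a7 3 untreated WT mice at 155 days stand above all other mice.

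Among the other genes with small p, several were of low count or rested on single mice. Slc9a7, a sodium and potassium proton exchanger of the Golgi, was measured at 6.86, 6.39, 7.52 and 1.62 CPM in untreated mice and at 2.93, 2.55, 2.12 and 2.51 CPM in OKN-007 mice. Untreated mouse 4 lay below all OKN-007 mice, and the other 3 untreated mice stood above the mean of every other group of the series (1.26 to 2.60 CPM). Its log2 fold change of -1.14 (SE 0.34, adjusted p 1.0) became -1.43 (adjusted p 0.0369) without untreated mouse 4. Necab2, a neuronal calcium-binding protein, lay at 32 to 43.5 CPM in untreated and at 29.4 to 31.6 CPM in OKN-007 mice, without overlap (-0.29, SE 0.09, adjusted p 1.0). Fgr, a Src-family kinase of myeloid cells, lay at 0.876 to 1.18 and 0.330 to 0.722 CPM, also without overlap (-1.0, SE 0.31, adjusted p 1.0). BC030867 (-0.90), Spn (-1.14), which encodes the leukocyte surface protein CD43, and Cilp (-1.60), a cartilage matrix protein, were also among the 10 lower genes with the smallest p. The latter 2 rested on 10 to 19 counts in each untreated mouse and 1 to 8 in each OKN-007 mouse.

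Among the 10 higher genes with the smallest p, all with an adjusted p of 1.0, several had groups without overlap. Gm7361 lay at 3.75 to 4.48 and 5.48 to 6.34 CPM (0.54, SE 0.13) and 1700109H08Rik at 2.63 to 3.61 and 3.87 to 4.87 CPM (0.54, SE 0.13). All OKN-007 mice lay above all untreated mice for both of these genes. Slc12a3, the thiazide-sensitive sodium chloride cotransporter, lay at 0.532 to 1.17 and 1.25 to 1.74 CPM (0.84, SE 0.23). Gm16378, a processed pseudogene whose reads may come from its parent gene (0.87), and Gm47621 (0.87) also did not overlap. Nlrp1a, a sensor of the inflammasome, had 3, 1, 2 and 1 counts in untreated mice and 8, 5, 12 and 7 in OKN-007 mice, and Gm37790 had 1, 4, 7 and 3 against 11, 12, 18 and 8 counts. Another 2 rested on 1 mouse each: Sult5a1 had 2207 counts in OKN-007 mouse 6 and 1 to 5 in each of the other 7, and Cbln3, a secreted protein of cerebellar granule cells, stood at 17.7 CPM in OKN-007 mouse 8 and at 0.345 to 1.18 CPM in the others. Sult5a1 reached 121 CPM in untreated and 99.0 CPM in OKN-007 WT mice labelled 90 days, so single mice with this gene at a high level occurred in both treatments.

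Enzymes that remove superoxide and peroxides lay close to equal levels. None of the 16 measured, which include the superoxide dismutases, catalase, glutathione peroxidases and peroxiredoxins, reached even an unadjusted p under 0.05. Sod1, the cytosolic superoxide dismutase, was measured at 252, 339, 240 and 268 CPM in untreated mice and at 285, 242, 294 and 253 CPM in OKN-007 mice. Untreated mouse 2 was highest and the other 7 mice were intermixed (log2 fold change -0.03, SE 0.10, 95% interval -0.23 to 0.17). Sod2 (-0.06), the mitochondrial dismutase, and Cat (-0.04), catalase, were as close, and Gpx3 (-0.26) and Sod3 (-0.22), both secreted, lay farthest from 0. All 16 log2 fold changes were below 0, with a median of -0.11, beside 57.7% of all genes. Without untreated mouse 2, 9 of the 16 were below 0, beside 48.9% of all genes, and the median was -0.02.

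Genes driven by Nrf2, the transcription factor of the antioxidant response, also lay close to equal levels. Of 16 members, 13 were below 0 (median log2 fold change -0.05), beside 57.7% of all genes, and none passed the adjusted threshold. At an unadjusted p under 0.05, 1 was lower, beside 1.65% of all genes. Fth1, the heavy chain of ferritin, which stores iron, was measured at 7020, 9350, 7890 and 6990 CPM in untreated mice and at 6850, 6000, 7350 and 5570 CPM in OKN-007 mice, with overlapping groups (-0.28, SE 0.12, unadjusted p 0.0344). Nqo1, a quinone reductase, and Hmox1, haem oxygenase 1, both lay at -0.20 (SE 0.12 and 0.24), and Gclc (0.03) and Gclm (-0.04), which form the enzyme that starts glutathione synthesis, near 0. Among 14 sources of oxidants, subunits of the phagocyte NADPH oxidase such as Cybb (-0.26) and Ncf1 (-0.07), nitric oxide synthases and monoamine oxidases, 0 had an unadjusted p under 0.05 (median -0.10). Nos2, the inducible nitric oxide synthase, lay at 0.584 to 0.949 CPM in untreated and 0.419 to 0.570 CPM in OKN-007 mice without overlap (-0.45, SE 0.39).

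The respiratory chain, a source of superoxide, did not separate the groups either. None of 18 nuclear-encoded subunits and 13 mitochondrially encoded ones had an unadjusted p under 0.05 (medians -0.08 and -0.06). All 18 nuclear-encoded subunits had log2 fold changes below 0, beside 57.7% of all genes. Without untreated mouse 2 only 6 did (median 0.01), beside 48.9% of all genes. In that mouse the mean log2(CPM + 1) of the 18 genes was 7.86, against 7.48 to 7.56 in the other 7. Metallothioneins and zinc transporters (5 members, median -0.09) and 12 of 14 transporters and enzymes of drug metabolism that passed the filter on low counts (median -0.03) held no member at an unadjusted p under 0.05.

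Markers of homeostatic microglia, the resident macrophages of the cord, had the lower values in OKN-007 mice. All 13 members had a log2 fold change below 0, with a median of -0.20, 3 of them at an unadjusted p under 0.05 and none past the adjusted threshold, beside 57.7% of all genes below 0 and 1.65% lower at an unadjusted p under 0.05. Tmem119, a membrane protein specific to microglia, was measured at 12.9, 13.5, 12 and 13.2 CPM in untreated mice and at 11.2, 9.07, 10.4 and 11.2 CPM in OKN-007 mice. All OKN-007 mice lay below all untreated mice (-0.31, SE 0.12, 95% interval -0.56 to -0.05, unadjusted p 0.0208). P2ry12, the receptor with which microglia sense ADP, was measured at 23.5, 21, 25.8 and 14.9 CPM and at 16.8, 19.2, 19.8 and 14.2 CPM, so untreated mouse 4 lay within the OKN-007 range (-0.28, SE 0.13, unadjusted p 0.0498). Selplg (-0.27), a ligand of selectins, Csf1r (-0.21), the receptor on which survival of microglia depends, Cx3cr1 (-0.15), the fractalkine receptor, and Aif1 (-0.20, SE 0.21), the gene of the marker Iba1, overlapped between the groups.

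The mean log2(CPM + 1) of the 13 genes was 4.36, 4.44, 4.34 and 4.14 in untreated mice and 4.08, 4.19, 4.23 and 4.04 in OKN-007 mice. Untreated mouse 4 lay within the OKN-007 range and the other 3 untreated mice above it. All 13 genes stayed below 0 without untreated mouse 2 (median -0.13) and without untreated mice 2 and 4 (median -0.16). Of all genes, 48.9% and 48.1% were below 0 in these fits. In WT mice labelled 90 days 3 of the 13 were below 0 (median 0.07), and in G93A mice at 155 days 9 were (median -0.07). The share of all genes below 0 was 51.8% in each of these comparisons. In RNA of whole tissue, fewer cells of a type and less RNA per cell cannot be told apart.

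Complement genes had a median near that of the microglial markers but were less uniform, with 8 of 11 below 0 and 3 above, beside 57.7% of all genes below 0. Of these 11, 4 (C1qa, C1qb, C3 and C3ar1) had all OKN-007 mice below all untreated mice, where 1.08% of all genes did, and 0 passed the adjusted threshold. C1qa, a chain of C1q, which starts the classical pathway and is made by microglia, was measured at 34.0, 51.1, 36.0 and 35.7 CPM in untreated mice and at 30.8, 27.2, 31.6 and 29.9 CPM in OKN-007 mice (-0.39, SE 0.19, 95% interval -0.79 to 0.01, unadjusted p 0.0543). Untreated mouse 2 held the highest value, and the groups did not overlap. C3, the component on which all complement pathways meet, lay at 83.2, 80.8, 82.5 and 67.6 CPM in untreated mice and at 63.5, 65.2, 66.2 and 54.8 CPM in OKN-007 mice (-0.33, SE 0.19, unadjusted p 0.1036). C1qb (-0.40), C1qc (-0.38) and C3ar1 (-0.53), the receptor of the fragment C3a, ran the same way, while Itgam (0.01) and Itgb2 (-0.03), which form complement receptor 3, lay near 0, and Serping1, which encodes the inhibitor of C1, had the highest value of the list (0.15).

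The mean log2(CPM + 1) of the 11 complement genes ran from 3.94 to 4.08 in untreated and from 3.74 to 3.87 in OKN-007 mice. Of the 42 lists examined this was the only one whose scores did not overlap between the groups. Among all single genes 1.91% had groups without overlap, a share not far from 1 in 42. The median log2 fold change of -0.25 was -0.15 without untreated mouse 2, -0.30 without untreated mouse 4 and -0.11 without untreated mice 2 and 4. Without untreated mouse 2, 10 of the 11 were below 0, beside 48.9% of all genes. The median was -0.31 without OKN-007 mouse 6 and -0.23 without OKN-007 mouse 8. It was 0.03 in WT mice labelled 90 days and -0.02 in G93A mice at 155 days.

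**Figure D4:**
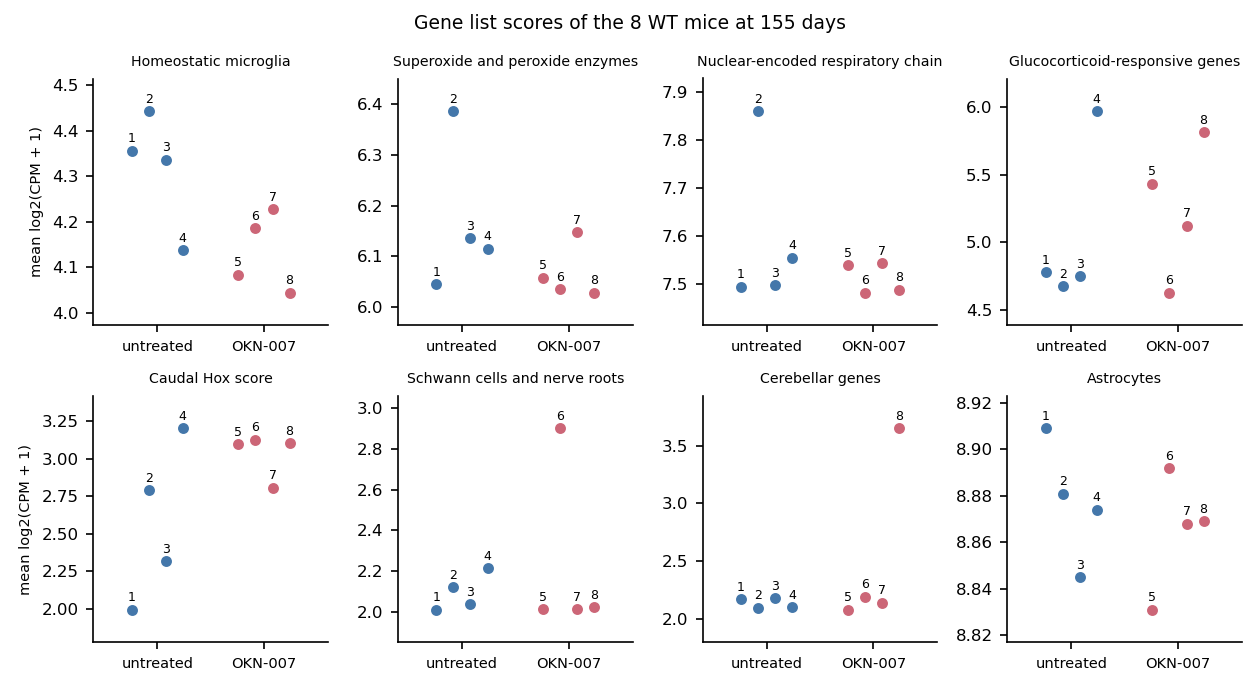
Mean log2(CPM + 1) of the members of 8 gene lists (vertical axes) in each of the 8 WT mice at 155 days, untreated mice 1 to 4 and OKN-007 mice 5 to 8 drawn by their numbers (horizontal axes). Single mice stand apart in several lists: untreated mouse 2 for the nuclear-encoded respiratory chain, untreated mouse 4 for glucocorticoid-responsive genes, OKN-007 mouse 6 for Schwann cell genes and OKN-007 mouse 8 for cerebellar genes.

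Genes that microglia induce in disease differed little. Of 16 members 15 had a log2 fold change below 0, with a median of -0.09, beside 57.7% of all genes below 0. At an unadjusted p under 0.05, 1 was lower, beside 1.65% of all genes. That gene, Trem2, a lipid receptor of microglia, was measured at 5.97, 9.10, 7.29 and 7.33 CPM in untreated mice and at 5.48, 4.55, 5.71 and 3.73 CPM in OKN-007 mice, without overlap (-0.61, SE 0.22, 95% interval -1.07 to -0.14, unadjusted p 0.0132). Tyrobp (-0.13), the adaptor through which Trem2 signals, and Apoe (-0.03), a lipid carrier, overlapped. Clec7a (-0.69, SE 0.37) and Itgax (-0.81, SE 0.49), both surface receptors of activated microglia, had means near or under 1 CPM. Without untreated mouse 2, 9 of the 16 were below 0, beside 48.9% of all genes. Of 15 interferon-stimulated genes, 1 was lower at an unadjusted p under 0.05 (median -0.09), beside 1.65% of all genes. This was Ifi27l2a, at 0.195 to 0.418 CPM in untreated and 0.0358 to 0.190 CPM in OKN-007 mice (-1.30, SE 0.57). These values lie around the floor of 0.129 CPM. The others, such as Ifit1 (-0.09), Isg15 (-0.08) and Ifit2 (0.04), lay near 0.

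Transcripts of several cytokines and chemokines were at or near the limit of detection in both groups. Of 41 genes listed for the proteins of the cytokine array used in the study, among them both Hc and its receptor C5ar1, 40 were paired with an identifier, 21 passed the filter on low counts and 0 had an unadjusted p under 0.05 (median -0.21, or -0.02 without OKN-007 mouse 8). Csf2, Csf3, Il17a and Cxcl2 had 0 counts in all 8 mice, and Tnf and Il1b lay at 0 to 0.183 and 0 to 0.179 CPM. The best covered were Csf1 (-0.06, SE 0.10), the ligand of the receptor Csf1r, and Cxcl12 (-0.26, SE 0.18), a chemokine. Il16, a chemoattractant of CD4+ cells, lay at 2.01, 1.64, 1.90 and 2.17 CPM in untreated mice and at 2.17, 2.51, 2.01 and 3.77 CPM in OKN-007 mice, with overlap (0.43, SE 0.21, unadjusted p 0.0579).

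Astrocytes and neurons showed no difference that these mice could resolve. None of 13 astrocyte markers and 12 genes of reactive astrocytes had an unadjusted p under 0.05 (medians 0.00 and -0.07). Gfap, the intermediate filament of astrocytes, was measured at 2210, 2490, 1900 and 2110 CPM in untreated mice and at 2010, 1910, 2100 and 1720 CPM in OKN-007 mice, with overlap (-0.17, SE 0.10, 95% interval -0.39 to 0.05). Of 14 neuronal markers, 0 had an unadjusted p under 0.05 (median -0.01). Rbfox3, the gene of the neuronal antigen NeuN, was measured at 207, 225, 213 and 226 CPM and at 207, 211, 227 and 215 CPM, with an interval of -0.15 to 0.12 around a log2 fold change of -0.02.

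Motor neuron genes had the higher values in OKN-007 mice more often than not. Of 13 members 8 were above 0 and 5 below (median 0.20), beside 57.7% of all genes below 0. At an unadjusted p under 0.05, 1 was higher, beside 1.29% of all genes. Prph, an intermediate filament of neurons that project to the periphery, was measured at 125, 131, 106 and 131 CPM in untreated mice and at 156, 133, 154 and 130 CPM in OKN-007 mice, with overlap (0.22, SE 0.10, unadjusted p 0.0498). Chat, the enzyme that makes acetylcholine, lay at 33.4, 26.0, 28.6 and 30.8 CPM and at 31.8, 34.3, 36.7 and 34.0 CPM (0.20, SE 0.10, unadjusted p 0.0516), while Slc18a3 (0.02), the vesicular transporter of acetylcholine, and Ache (-0.07), the enzyme that breaks it down, lay near 0. The list's median was 0.01 without untreated mice 2 and 4 and 0.09 without OKN-007 mouse 8. It was -0.10 in WT mice labelled 90 days and -0.30 in G93A mice at 155 days. The caudal Hox genes, which mark position along the cord, also had a median above 0, and when their score entered the fit the median of the motor neuron genes was 0.23.

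Myelin, vessels and the linings of the cord also held no gene past the threshold. Of 14 genes of oligodendrocytes and myelin, 12 were below 0 (median -0.10), beside 57.7% of all genes. Of these 14, 0 had an unadjusted p under 0.05, and Mbp, a main structural protein of central myelin, lay at -0.13 (SE 0.08). Oligodendrocyte precursors (10 members, median -0.02), endothelial cells and pericytes (14 members, -0.02), ependymal cells (10 members, -0.08) and the response to hypoxia with angiogenesis (12 of 13 members tested, 0.01; Vegfa -0.01) likewise held 0. Among 10 tested genes of meninges and fibroblasts, Aldh1a2, which makes retinoic acid, lay at 0.78 (SE 0.37, unadjusted p 0.0464) and Mgp, a matrix protein that holds back calcification, at -0.39 (SE 0.16, unadjusted p 0.0241). At an unadjusted p under 0.05, 1.29% of all genes were higher and 1.65% lower. Among 9 tested genes of Schwann cells the median was 0.05, and Prx, a protein of peripheral myelin, had an unadjusted p of 0.0454 with 10.9 CPM in OKN-007 mouse 6 and 0.224 to 1.65 CPM in the other 7. Skeletal muscle (6 of 10 members tested, median 0.00), T and NK cells (5 of 10, 0.19) and blood cells (7 of 10, -0.22) held 0 at an unadjusted p under 0.05. Liver genes (6 of 9, -1.51) held 0 as well, with Alb at 12.5 CPM in untreated mouse 1, at 3.42 and 2.42 CPM in untreated mouse 3 and OKN-007 mouse 7, and at 0 to 0.593 CPM in the other 5.

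**Figure D5:**
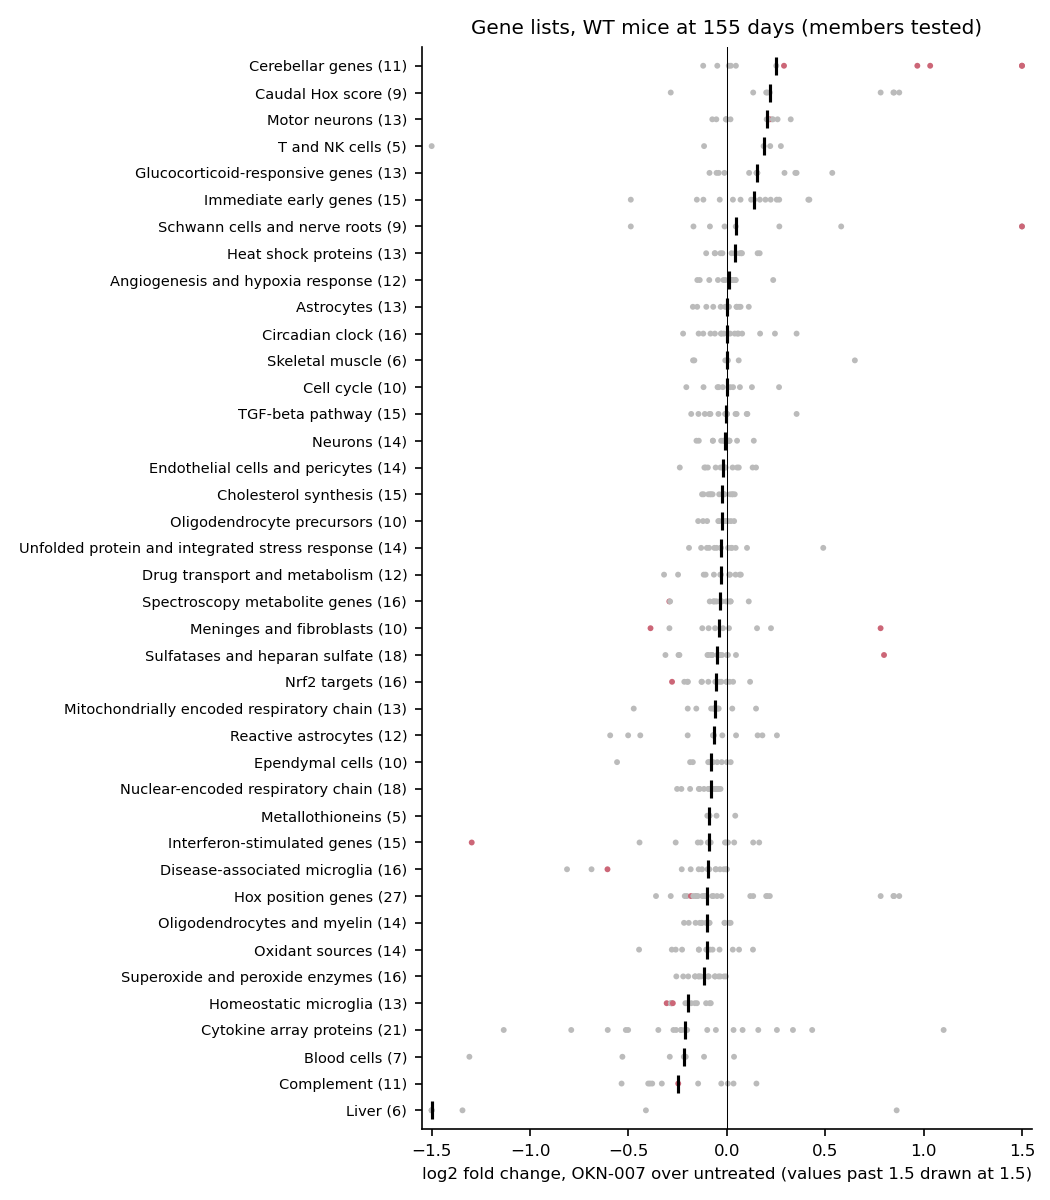
Log2 fold change, OKN-007 minus untreated, in WT mice at 155 days (horizontal axis) of every tested member of 40 gene lists (vertical axis), with members at an unadjusted p under 0.05 in red, the others in grey and the median of each list as a black bar; values beyond 1.5 in either direction are drawn at 1.5. Most medians lie close to 0, with homeostatic microglia at -0.20 and complement at -0.25 among the lower ones and no member past the adjusted threshold.

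Heparan sulfate and its enzymes were examined because OKN-007 is known as an inhibitor of the extracellular sulfatase Sulf2. Of 18 members, 1 was higher at an unadjusted p under 0.05 (median -0.05), beside 1.29% of all genes. Sulf2 was measured at 107, 118, 117 and 131 CPM in untreated mice and at 107, 118, 101 and 131 CPM in OKN-007 mice, with intermixed values (-0.05, SE 0.11), and Sulf1, the related sulfatase, at -0.24 (SE 0.12, unadjusted p 0.0658). Hpse, the heparanase that cleaves heparan sulfate chains, lay at 0.448, 0.432, 0.266 and 0.130 CPM and at 0.532, 0.609, 0.586 and 0.453 CPM, without overlap (0.80, SE 0.38, unadjusted p 0.0497). All OKN-007 mice lay above all untreated mice for 0.83% of all genes, and the lowest Hpse value is near the floor of 0.129 CPM. Of 15 genes of the TGF-beta pathway, 0 had an unadjusted p under 0.05 (median 0.00). Genes behind the metabolites that spectroscopy of the cord can measure numbered 16 (median -0.03). Of these, 1 was lower at an unadjusted p under 0.05, beside 1.65% of all genes. In this list Impa2, an inositol monophosphatase that yields myo-inositol, was measured at 13.7, 15.9, 15.6 and 14.2 CPM in untreated mice and at 11.4, 12.4, 11.9 and 12.8 CPM in OKN-007 mice. All OKN-007 mice lay below all untreated mice (-0.29, SE 0.10, 95% interval -0.51 to -0.07, unadjusted p 0.0114). Isyna1 (-0.07), which makes inositol phosphate from glucose phosphate, Impa1 (0.02), the related phosphatase, and Slc5a3 (-0.03), a transporter of myo-inositol, overlapped.

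Stress and timing genes varied more between mice than between groups. Genes of the unfolded protein response (14 members, median -0.03), heat shock proteins (13, 0.04), cholesterol synthesis (15, -0.02), the cell cycle (10, 0.00) and the circadian clock (16, 0.00) held 0 members at an unadjusted p under 0.05. Immediate early genes lay at a median of 0.14 (15 members, 4 below 0, beside 57.7% of all genes). Fos lay at 12.2, 11.5, 12.7 and 16.3 CPM in untreated mice and at 26.4, 15.4, 12.7 and 16 CPM in OKN-007 mice (0.41, SE 0.22). Glucocorticoid-responsive genes lay at a median of 0.15 (13 members, 4 below 0), and the mean log2(CPM + 1) of the list was 4.78, 4.68, 4.75 and 5.97 in untreated and 5.43, 4.63, 5.12 and 5.82 in OKN-007 mice. Untreated mouse 4 was the highest of all, and without it the median was 0.57 with 0 below 0. The median was 0.04 without untreated mouse 2, -0.11 without OKN-007 mouse 8 and 0.27 without OKN-007 mouse 6. With the caudal Hox score in the fit it was -0.10. In G93A mice at 155 days the median was -0.37, with 13 of 13 below 0. For WT mice labelled 90 days it was 0.18, with 0 of 13 below 0. Of 27 tested Hox genes along the body axis, 1 was lower at an unadjusted p under 0.05, beside 1.65% of all genes. This was Hoxb8 (-0.18, unadjusted p 0.0322), and the median of the 27 was -0.10. The 9 caudal Hox genes had a median of 0.22, and of 0.72 without untreated mouse 2 and 0.56 without untreated mouse 4. Of the 11 tested cerebellar genes, a list picked once its values were known, 5 were higher at an unadjusted p under 0.05, beside 1.29% of all genes. Their median was 0.25, and -0.05 without OKN-007 mouse 8.

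Over the 41 lists fixed first, without the list of cerebellar genes, 496 different genes were tested. Of these 17 (3.43%) had an unadjusted p under 0.05, 4 higher and 13 lower, beside 2.94% of all genes. For 14 (2.82%) the groups did not overlap, beside 1.91%. Ide, Fgfbp3 and Btaf1 are among the 13 and among the 14. For 422 (85.1%) the 95% interval lay inside -1 and 1, beside 86.4% of all genes.

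Whether the response to OKN-007 in WT mice at 155 days differed from that in other mice was tested as an interaction. Against G93A mice of the same age, 0 of 18675 genes (0.0%) had an adjusted p under 0.05 in edgeR's quasi-likelihood test and 437 (2.34%) an unadjusted p under 0.05, while DESeq2 called 2 and the likelihood ratio test 3. The smallest adjusted p, 0.3577, belonged to Ide and Fgfbp3, for which the log2 fold change in WT mice was lower than that in G93A mice by 1.14 (SE 0.21) and 0.94 (SE 0.17), written as differences of -1.14 and -0.94. In G93A mice alone the log2 fold change was 0.21 (SE 0.15) for Ide, 0.27 (SE 0.12) for Fgfbp3 and 0.38 (SE 0.21) for Btaf1, and 0 genes passed the adjusted threshold (0.0%, with 755 or 4.04% at an unadjusted p under 0.05). Against WT mice labelled 90 days, 0 of 18663 genes (0.0%) passed and 477 (2.56%) had an unadjusted p under 0.05, while DESeq2 called 2 and the likelihood ratio test 3. Ide again had the smallest p, with a difference of -1.11 (SE 0.18, adjusted p 0.0971). At 90 days 0 genes passed in the drug comparison of WT mice (0.0%, with 769 or 4.07% at an unadjusted p under 0.05), and the log2 fold change of Ide was 0.18 (SE 0.07) and that of Btaf1 0.26 (SE 0.11), both on the other side of 0.

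The genes with small p at 155 days were followed into these other mice, none of which they share. Of the 549 genes at an unadjusted p under 0.05, 516 were tested at 90 days, and 313 (60.7%) had the same sign there, beside 54.8% of all genes. In G93A mice at 155 days 359 of 549 (65.4%) had the same sign, beside 59.3% of all genes. Of the 10 lower genes with the smallest p, 6 of 10 kept their sign at 90 days and 4 of 10 in G93A mice, and of the 10 higher genes 4 of 8 and 4 of 10.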

How the data were processed

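RNA was extracted with TRIzol from spinal cord, and libraries were made with the TruSeq Stranded mRNA kit and sequenced on a NextSeq 500. The deposited table holds raw counts of reads per gene, which the authors did not normalize: 42524 genes in 32 mice, with 0 rows that name no gene and 0 columns of no sample. The sources used here differ on how these counts were made. The study's methods name Trimmomatic, STAR, GRCm38, HTSeq and GENCODE M10, and the submitters' processing notes name FastQC, STAR, featureCounts, edgeR and the builds hg38, GRCm39 and mm39. Because 1306 gene identifiers lie above the highest of GENCODE M21, a newer annotation than M10 was used for at least some genes. Through M21, 41218 genes (96.9%) were paired with a symbol. The only coordinates given are those of the promoter windows, which come from RefSeq for GRCm38.p6 and not from the annotation used for counting. The kit marks strand, but whether the counting used it is not given in the sources used here, so overlapping and antisense genes may share reads.

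The 16 mice of 155 days were fitted together as 4 groups of 4 with edgeR 4.0.16 in R 4.3.3 (filterByExpr, TMM, estimateDisp, glmQLFit, glmQLFTest, no covariate), and the contrast was WT OKN-007 minus WT untreated. P-values are two-sided and were adjusted by Benjamini-Hochberg over all genes tested, with a threshold of 0.05. Standard errors come from the F statistic, and 95% intervals are those of single genes. The interaction with genotype used the same 16 mice and the interaction with age the 16 WT mice. The script was tested on simulated counts with known changes. CPM are counts per 1000000 of the library's total scaled by its TMM factor, are not per gene length and were compared only within a gene. Their TMM factors were computed within each age. A list's score is the mean log2(CPM + 1) of its paired members in a mouse. Total counts of 23259870 to 30138257 per mouse set the precision, and a floor of 3 counts (in the smallest library's total) covers counting error only.

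Genes named are the 10 higher and the 10 lower with the smallest p, Gfap, Aif1, Rbfox3 and Sod1, Ide and its neighbours, and members of the lists, with at least those at an unadjusted p under 0.05 and the extremes among them described by their values, and a few genes that fall under this rule are not reported here. Lars2, Hoxd10 and the list of cerebellar genes were picked once their values were known. The members and the lists were chosen with earlier results of these data known, and the lists are described by counts and medians without a set test. Alternatives were another fit (8 or 32 mice), DESeq2 1.42.0, the likelihood ratio test, robust dispersions, RLE factors, other filters, 1 surrogate variable (sva 3.50.0), the caudal Hox score as a covariate, a threshold of 0.10 and each mouse left out. Leaving out untreated mice 2 and 4 together was added after seeing the data.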

Additional observations from a re-analysis of the deposited data

Results flagged for a closer look

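Within each group of 4 WT mice at 155 days, 130 sets of values were searched for a mouse whose gap to the nearest of the others exceeded Dixon's 95% critical value. The search found 13, where chance would give 6.5 had the sets been chosen without regard to their values. The cerebellar list, Sult5a1 and Cbln3 were chosen by values of these same mice, so 13 cannot be compared with 6.5. Of the 13, 11 concern the mean log2(CPM + 1) of a gene list. Untreated mouse 1 was lowest for the proteins of the cytokine array (0.476, the next mouse 0.512). Untreated mouse 2 was highest for the nuclear-encoded respiratory chain (7.86, the next 7.56). Untreated mouse 3 was lowest for the cell cycle genes (2.10, the next 2.13). Untreated mouse 4 was highest for glucocorticoid-responsive genes (5.97, the next 4.78) and lowest for cholesterol synthesis (6.16, the next 6.41).

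In the OKN-007 group, mouse 5 was highest for ependymal cells (2.57, the next 2.37) and lowest for the mitochondrially encoded respiratory chain (7.29, the next 7.64). OKN-007 mouse 6 was highest for Schwann cells and nerve roots (2.90, the next 2.02) and lowest for metallothioneins (5.8, the next 6.01). OKN-007 mouse 7 was lowest for the caudal Hox genes (2.81, the next 3.10), and OKN-007 mouse 8 was highest for cerebellar genes (3.65, the next 2.19). The other 2 concern single genes: Sult5a1 at 79.1 CPM in OKN-007 mouse 6 (the next 0.14 CPM) and Cbln3 at 17.7 CPM in OKN-007 mouse 8 (the next 1.18 CPM).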

How the results depend on the processing

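With 0 genes past the adjusted threshold in WT mice at 155 days, the fit of all 32 mice gave 2 genes, DESeq2 2, the likelihood ratio test 4, no filter on low counts 10 and 1 surrogate variable 1, and leaving out both untreated mice 2 and 4 gave 1. Leaving out 1 mouse at a time gave 0 to 3, with 3 without untreated mouse 4. Genes at an unadjusted p under 0.05 numbered 1385 without the filter, 1329 without untreated mice 2 and 4, and 351 to 1289 with 1 mouse left out (549 with all). The interaction with genotype gave 2 (DESeq2), 3 (likelihood ratio test), 8 (no filter) and 1 (all 32 mice), and 0 to 1 with 1 mouse left out, and the interaction with age gave 2, 3 and 60 under the first 3 of these settings. No paired analysis was possible because the untreated and OKN-007 mice of 155 days share no replicate number. Same-numbered WT mice of 90 and 155 days were not paired (r of -0.117 to 0.187 over 8 pairs, over 0.1 in 1, and 2 of 8 mice closest to their own number), and a replicate block in the interaction with age left 0 genes.

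Without untreated mice 2 and 4 the log2 fold change turned its sign for Rbfox3 (0.057), Sod1 (0.15), Mir6236 (0.25), Lars2 (0.23) and Plin4 (2.29), and with the caudal Hox score in the fit for Arrdc2 (-0.057). With 1 mouse left out it ran from -0.044 to 0.024 for Rbfox3, -0.092 to 0.10 for Sod1, -2.77 to 0.42 for Gm10801, -2.59 to 0.35 for Gm10800, -0.17 to 1.73 for Hif3a, -1.52 to 0.29 for Mir6236, -1.45 to 0.29 for Lars2, -1.26 to 2.27 for Plin4, -0.32 to 2.87 for Prx and -0.22 to 3.07 for Pcp2. None of these genes passed the threshold in either direction with all 8 mice. Of the list medians, 160 moved by less than the spread between mice and 8 by more under the other settings, and 323 and 55 with 1 mouse left out. Depth limits genes under 1 CPM, where most intervals reached beyond a 2-fold change, and 4 mice a group limit the rest. The causes of these shifts were not tested.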
